A study of Mus musculus with 5 samples.

Results

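The calpain system was described here through 9 genes given by symbol: the calpain proteases Capn1, Capn2, Capn3, Capn5, Capn6, Capn7 and Capn10, the small subunit Capns1 and the inhibitor calpastatin (Cast). They were read by 20 probes of an Illumina BeadArray, and the value given for a gene is that of its brightest probe, so that they form 9 of the 16917 genes tested. The group was chosen by symbol with the mutIDH1 and wtIDH1 signals of these same arrays already known, so the differences between mutIDH1 and wtIDH1 are given as a description and not as independent evidence. The samples are 3 gliomas expressing mutant IDH1 (mutIDH1) and 2 expressing wild-type IDH1 (wtIDH1). All came from Ntva_Ink4a/Arf-/- mice of mixed FVB/N, C57BL6, BALB/C and 129 background, which were not otherwise treated. In the RCAS/tva system avian retroviruses, shed by injected chicken DF1 fibroblasts, enter only cells bearing the tva receptor, which Ntva mice express from the Nestin promoter of neural progenitors. Both groups received PDGFa virus and a short hairpin against p53 (shp53), and differed in the form of IDH1 joined to that hairpin. The tumours were taken when the mice fell ill, age is not given in the labels, and RNA came from whole tumour tissue, so a value cannot tell fewer cells of a type from less RNA per cell.

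Calpains are calcium-dependent cysteine proteases of the cytosol that cut a limited number of sites in their targets, among them cytoskeletal and adhesion proteins, and thereby alter rather than destroy them. The conventional enzymes, calpain-1 (Capn1) and calpain-2 (Capn2), each pair with the small subunit Capns1, bind calcium through penta-EF-hand domains and are held in check by calpastatin. Capn5, Capn6, Capn7 and Capn10 lack the penta-EF-hand domain. Capn5 and Capn6 are the mammalian relatives of the worm protein TRA-3, and Capn6 has lost the active-site cysteine, so it is not thought to cut proteins.

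The values are log2 signals deposited after normalization, with a background level estimated at 7.51. Between 18921 and 18933 of 45281 probes lay above it on each array. The arrays share 1 distribution after normalization, so these near-equal counts say nothing on the quality of single arrays. With 5 arrays every estimate is imprecise. Pearson's r over the genes tested, which are not independent, was 0.988 to 0.994 within mutIDH1, 0.971 within wtIDH1 and 0.969 to 0.980 between the groups. Markers of oligodendrocyte precursors, the cell type that PDGF-driven gliomas resemble, were above background in all samples. All 7 were tested, 0 were at or under background on every array, and their summed linear signal was 65459 to 70506 in mutIDH1 and 65319 to 67644 in wtIDH1. The sum follows the brightest genes: Olig1 was at 14.40 to 14.88 over the samples, Olig2 at 8.53 to 9.54 and Neu4 at 8.18 to 9.02. Xist exceeded the Y-linked Eif2s3y in mutIDH1 sample 1 and wtIDH1 sample 1, and the reverse held in the other 3 samples, so each group held female and male tumours.

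Among the 9 genes, Capn6 and Capn5 fell in mutIDH1 gliomas and the other 7 did not pass the test. Capn6 was 5.73-fold lower and Capn5 2.16-fold lower. The count of 2 of 9 lower, with 0 higher, stands beside 0.899% of all genes tested that were lower and 1.35% that changed in either direction, but nothing is read from it, since this contrast was known when the genes were chosen. The median log2 difference of the 9 genes was −0.040, against 0.014 over all genes tested. The groups did not overlap for Capn6 and Capn5 and overlapped for the other 7, and of all genes tested 30.6% had groups without overlap, 14% lower and 16.7% higher in mutIDH1. All 9 genes passed the filter on dim probes through at least 1 probe, and Cast lay at or under background on every array. The plot of the brightest probes shows the separation of Capn6 and Capn5 beside the overlap of the others.

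**Figure D1:**
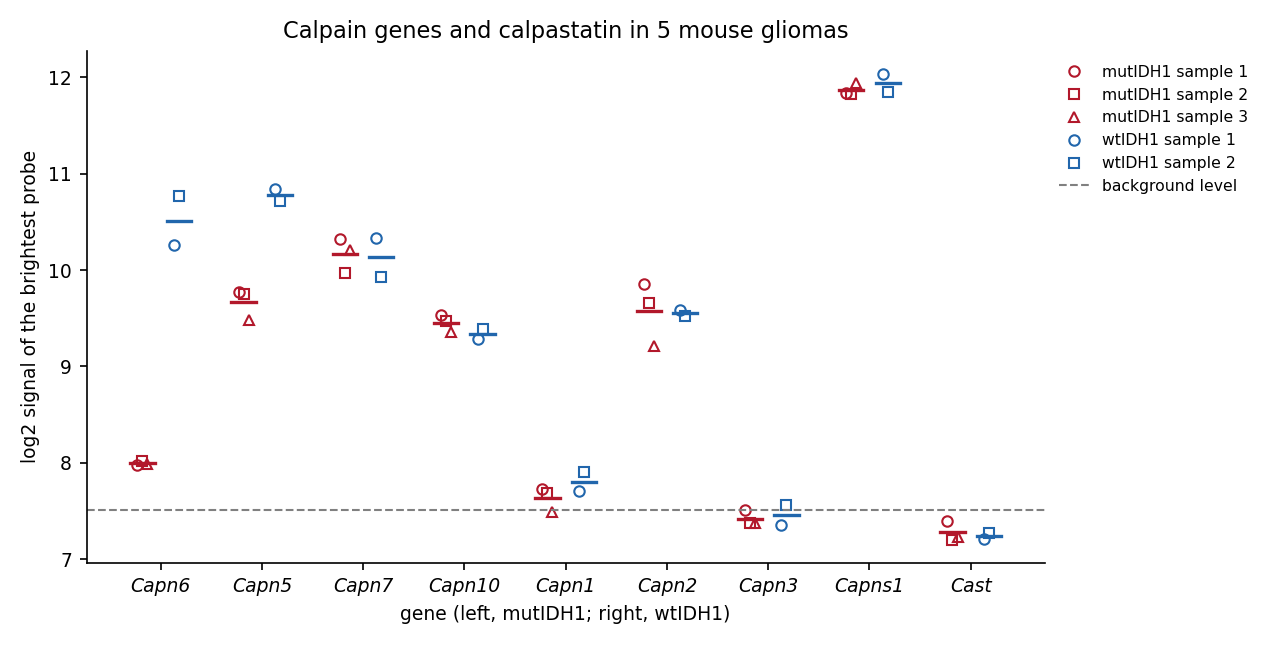
Log2 signal of the brightest probe of each of the 9 genes (y axis) in the 3 mutIDH1 samples (left in each pair, red) and the 2 wtIDH1 samples (right, blue). Bars are group means, marker shapes are sample numbers and the dashed line is the background level of 7.51. Capn6 and Capn5 are the genes whose groups stand apart, and Cast lies below the line in every sample. Heights of different genes are not comparable, because each probe has its own brightness.

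Capn6, which is linked to microtubule stability, is read by 1 probe. Its log2 signal was 7.98, 8.02 and 7.99 in mutIDH1 samples 1 to 3, against 10.26 and 10.77 in wtIDH1 samples 1 and 2. All mutIDH1 samples were low and close together, still above background, and both wtIDH1 samples were high. The means were 7.99 ± 0.02 in mutIDH1 (SD, n = 3) and 10.51 ± 0.36 in wtIDH1 (SD, n = 2), a log2 difference of −2.52 ± 0.16 (SE of the limma fit, 95% interval −2.91 to −2.13). The Benjamini-Hochberg adjusted p of limma over all genes was 0.0103, and Capn6 ranked 6 from the steepest fall among the 16917 genes.

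Capn6 lies on the X chromosome. Within mutIDH1 the tumour with high Xist (sample 1, 7.98) and those with high Eif2s3y (8.02 and 7.99) were alike in Capn6 signal. Within wtIDH1 the tumour with high Xist (sample 1, 10.26) lay below the one with high Eif2s3y (sample 2, 10.77). With sex as a covariate the difference between mutIDH1 and wtIDH1 was −2.56 ± 0.13 (limma adjusted p = 0.0252). The call, though not the size, was lost when any 1 of the mutIDH1 samples was left out. Without mutIDH1 sample 1, 2 or 3 the log2 difference was −2.51, −2.53 and −2.52, and the adjusted p was 0.0502, 0.120 and 0.102. In those fits 14, 0 and 0 of all genes were called.

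Capn5, a broadly expressed calpain whose human gene is mutated in an inherited inflammatory eye disease, is also read by 1 probe. Its log2 signal was 9.77, 9.75 and 9.49 in mutIDH1 and 10.84 and 10.72 in wtIDH1. Every mutIDH1 sample lay below both wtIDH1 samples, and the wtIDH1 samples, which were apart for Capn6, were close for Capn5. The log2 difference was −1.11 ± 0.11 (95% interval −1.39 to −0.83, limma adjusted p = 0.0263). With sex as a covariate it was −1.09 with an adjusted p of 0.0613, and without mutIDH1 sample 1, 2 or 3 it was −1.16, −1.15 and −1.02 with an adjusted p of 0.0777, 0.169 and 0.106. The plot of alternative settings shows the steady sizes and the lost calls of both genes.

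**Figure D2:**
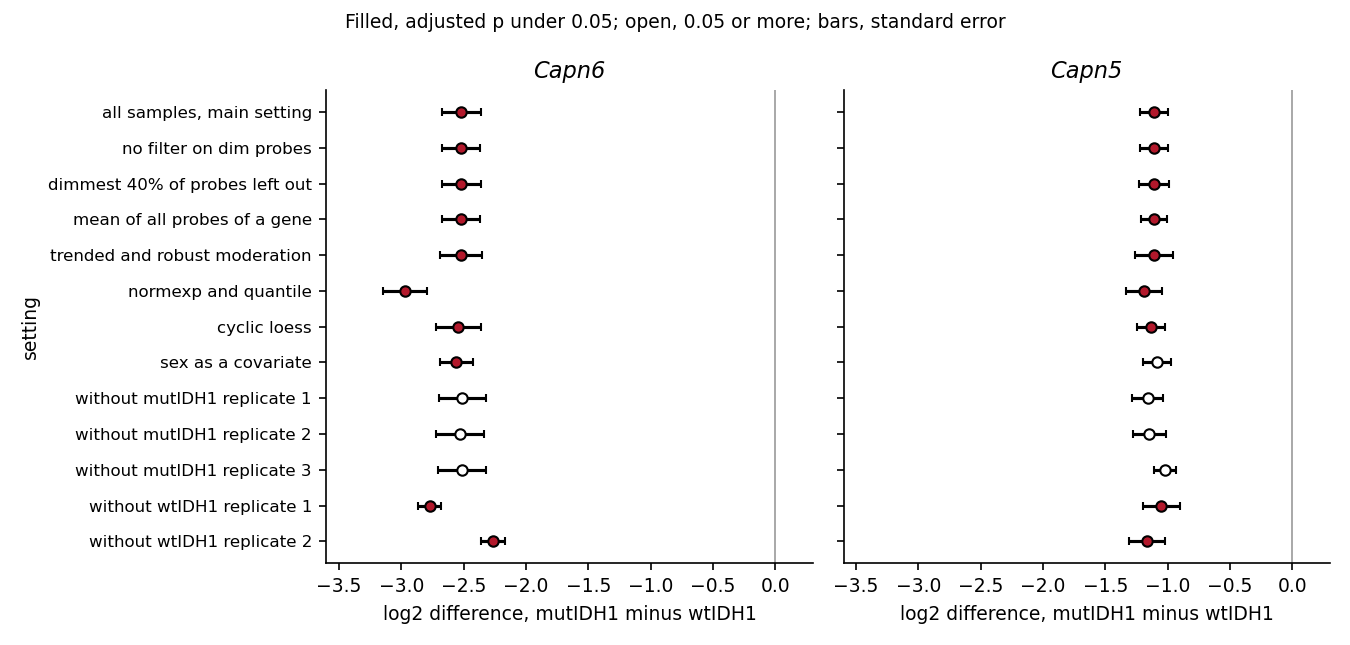
Log2 difference, mutIDH1 minus wtIDH1, of Capn6 (left) and Capn5 (right) under each setting listed on the y axis. Bars are standard errors, filled points have an adjusted p under 0.05 and open points do not. The differences lie between −2.97 and −2.26 and between −1.19 and −1.02. Among the settings plotted, both calls are lost without any 1 of the 3 mutIDH1 samples, and that of Capn5 also with sex as a covariate.

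Promoter windows of RefSeq (250 bases before to 50 after a gene's start, GRCm38.p6) were found for 8 of the 9 genes, 13 windows in all; Capn5 was the gene with none. The windows of Capn6, the steepest fall, and Capn2, a conventional calpain whose groups overlap, are shown 5′ to 3′ on the gene's strand, both the minus strand. Capitals mark the GC box (GGGCGG or its reverse complement CCGCCC) and the AP-1 motif (TGACTCA or TGAGTCA), which were searched on both strands.
Capn6, chrX:143827363-143827662: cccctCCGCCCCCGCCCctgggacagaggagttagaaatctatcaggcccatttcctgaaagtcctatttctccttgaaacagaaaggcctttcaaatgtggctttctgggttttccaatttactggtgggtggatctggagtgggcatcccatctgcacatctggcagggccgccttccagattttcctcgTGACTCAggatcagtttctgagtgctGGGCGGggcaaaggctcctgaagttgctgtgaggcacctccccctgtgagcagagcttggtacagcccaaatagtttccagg
Capn2, chr1:182517561-182517860: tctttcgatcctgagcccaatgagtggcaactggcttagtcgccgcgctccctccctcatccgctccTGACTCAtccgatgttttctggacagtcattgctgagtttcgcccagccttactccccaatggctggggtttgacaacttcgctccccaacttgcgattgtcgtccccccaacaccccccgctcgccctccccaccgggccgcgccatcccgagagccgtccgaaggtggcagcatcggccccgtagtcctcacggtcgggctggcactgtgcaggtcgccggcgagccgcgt
The Capn6 window holds 3 GC boxes, of which the leftmost pair lie side by side, and 1 AP-1 motif, with no overlap between motifs. The Capn2 window holds 1 AP-1 motif and 0 GC boxes. Over all 32851 windows, 35.7% hold a GC box and 5.20% an AP-1 motif. The TATA box letters TATAAA and the core letters ACGTG of the hypoxia response element occur in neither window, on either strand, and in 13.6% and 19.6% of all windows. CpG dinucleotides, the sites of DNA methylation, number 5 in the Capn6 window and 27 in that of Capn2, with a median of 7 over all windows. Neither methylation nor binding was measured here.

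Capn7 and Capn10, which also lack the penta-EF-hand domain, did not pass the test. Capn7, which binds proteins of the ESCRT-III membrane machinery, was at 10.33, 9.97 and 10.21 in mutIDH1 and at 10.33 and 9.93 in wtIDH1. The groups covered the same range, and the difference was 0.03 ± 0.16 (95% interval −0.37 to 0.44). Capn10, whose human gene has been studied in type 2 diabetes, was at 9.53, 9.47 and 9.36 in mutIDH1 and at 9.28 and 9.39 in wtIDH1, a difference of 0.12 ± 0.09 (95% interval −0.10 to 0.33). All 3 Capn10 probes lay above background on every array with differences from 0.05 to 0.30 in a fit over all probes, all above 0. For its dimmest probe the groups did not overlap (9.08, 8.99 and 9.19 in mutIDH1, 8.79 and 8.77 in wtIDH1), with an adjusted p of 0.201 over all 45281 probes.

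The conventional calpains and their small subunit did not pass the test. Capns1, the shared small subunit, was at 11.84, 11.83 and 11.94 in mutIDH1 and at 12.04 and 11.84 in wtIDH1, and its difference of −0.07 ± 0.09 has a 95% interval of −0.30 to 0.16. Capn1 was close to background, at 7.73, 7.69 and 7.49 in mutIDH1 and 7.70 and 7.90 in wtIDH1 (difference −0.17 ± 0.11, 95% interval −0.44 to 0.11). Its other probe, at or under background on every array, stood at 0.07 ± 0.07. At this brightness a difference in Capn1 is compressed and could not be measured well.

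Capn2 varied more among the mutIDH1 tumours than between the groups. Its brightest probe was at 9.86, 9.66 and 9.21 in mutIDH1 and at 9.58 and 9.53 in wtIDH1, a difference of 0.02 ± 0.19 (95% interval −0.47 to 0.50). The 2 next brightest probes were at 9.83, 9.73 and 8.75 and at 9.55, 9.44 and 8.52 in mutIDH1, against 9.06 and 9.33 and against 8.77 and 8.90 in wtIDH1. Their differences of 0.24 ± 0.34 and 0.34 ± 0.32 have 95% intervals of −0.59 to 1.08 and −0.45 to 1.12, in a fit over all probes. In all 3 of these probes mutIDH1 sample 3 was the lowest of the 5 samples and mutIDH1 sample 1 the highest, with sample 3 below sample 1 by log2 differences between −0.65 and −1.08. The 2 dimmest Capn2 probes shared this order in part or not at all. One was highest in mutIDH1 sample 3 (7.92, against 7.61 and 7.68 in samples 1 and 2). The other, close to background, was at 7.58, 7.49 and 7.40 in mutIDH1 samples 1 to 3 and at 7.61 and 7.63 in wtIDH1. There mutIDH1 sample 3 was again the lowest of the 5 samples, but mutIDH1 sample 1 was not the highest. Among the mutIDH1 tumours sample 3 also had the lowest summed signal of oligodendrocyte markers (20663, against 72007 and 30867 in samples 1 and 2) and of neuron, astrocyte, oligodendrocyte precursor, microglia, macrophage and neutrophil markers. Its sums were only slightly the lowest for microglia (4096, against 4151 in sample 1) and neutrophil markers (1181, against 1187 in sample 2). Sample 3 had the highest mutIDH1 sum of endothelial markers (10218, against 8172 and 8732). The same held for red blood cell (15616, against 10713 and 6544) and skeletal muscle markers. For mural cell and fibroblast markers and T cell markers it was not the lowest. The part of these cell types in the Capn2 values was not tested.

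**Figure D3:**
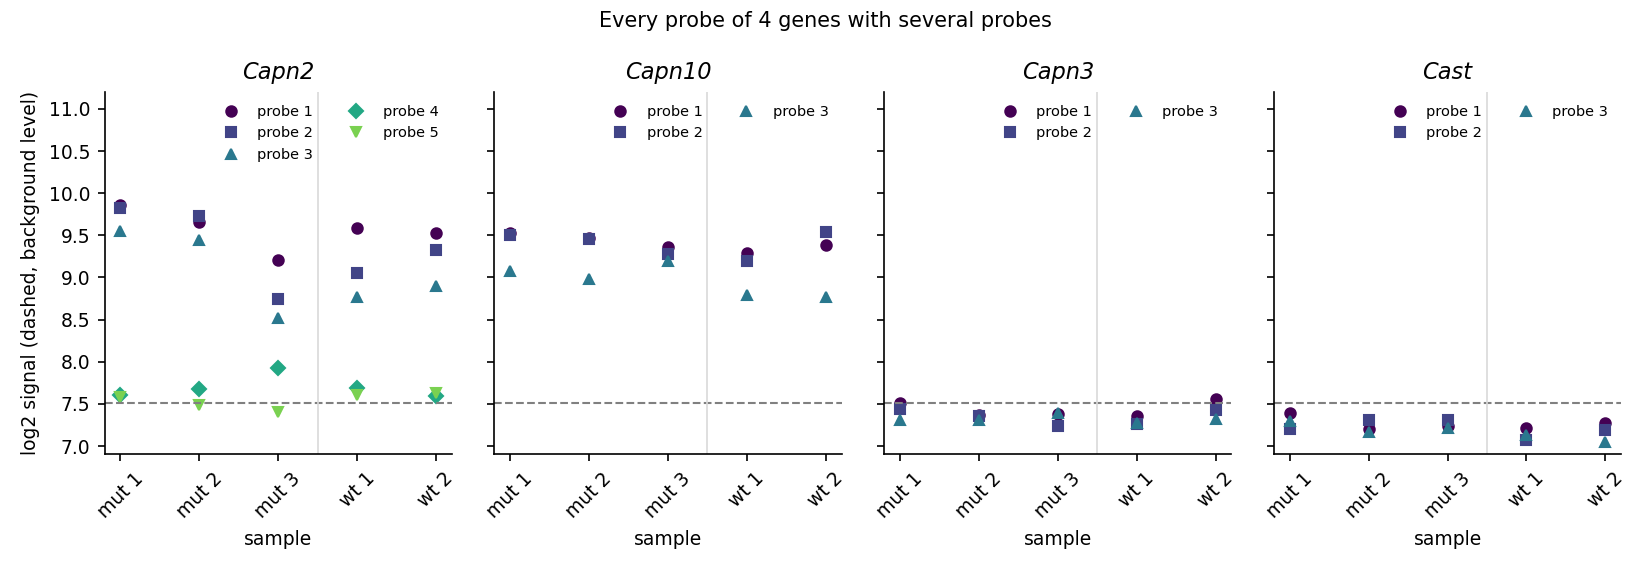
Log2 signal of every probe of Capn2, Capn10, Capn3 and Cast (y axis) in the 5 samples, the mutIDH1 samples left of the thin line and the wtIDH1 samples right of it. Probes of a gene are numbered from the brightest, and the dashed line is the background level. The 3 bright Capn2 probes drop in mutIDH1 sample 3, while the probes of Cast lie below the line throughout.

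Capn3 and calpastatin gave little or no signal. Capn3, the calpain of skeletal muscle, was at 7.51, 7.37 and 7.37 in mutIDH1 and at 7.36 and 7.56 in wtIDH1. Its brightest probe exceeded background in 0 of 3 mutIDH1 and 1 of 2 wtIDH1 samples, and its other probes did so in none. The 3 Cast probes lay between 7.17 and 7.40 in mutIDH1 and between 7.04 and 7.27 in wtIDH1. None was above background on any array, and 1 of the 3 passed the filter on dim probes. For Cast these probes do not measure the level of the transcript in either group, and for Capn3 they do little more. No fold is given, and their log2 differences, where plotted or listed with those of other genes, are differences between signals at or near background and measure no change in level.

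Other calpains were tested as well, and 0 of 4 passed in limma (0 at an unadjusted p under 0.05). Capn15 was the 1 of them above background throughout, at 8.85, 9.12 and 9.12 in mutIDH1 and 8.89 and 9.16 in wtIDH1 (difference 0.01 ± 0.13). Capn8, known from stomach, stood at 0.10 ± 0.10 and exceeded background on 1 mutIDH1 array, and Capn11 and Capn13 did so on none, with differences of −0.03 ± 0.08 and 0.02 ± 0.07. The probes of Capn9 and Capns2 fell under the filter, and Capn12 was not analysed here. Among penta-EF-hand relatives of the small subunit, 0 of 3 passed in limma (0 at an unadjusted p under 0.05). Sorcin (Sri), a calcium sensor of muscle and brain, stood at −0.13 ± 0.08, grancalcin (Gca) of leukocytes at 0.05 ± 0.09 and peflin (Pef1) at 0.13 ± 0.10, and the probe of Pdcd6 fell under the filter. The plot of differences sets Capn6 and Capn5 apart from these genes by intervals that do not reach 0.

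**Figure D4:**
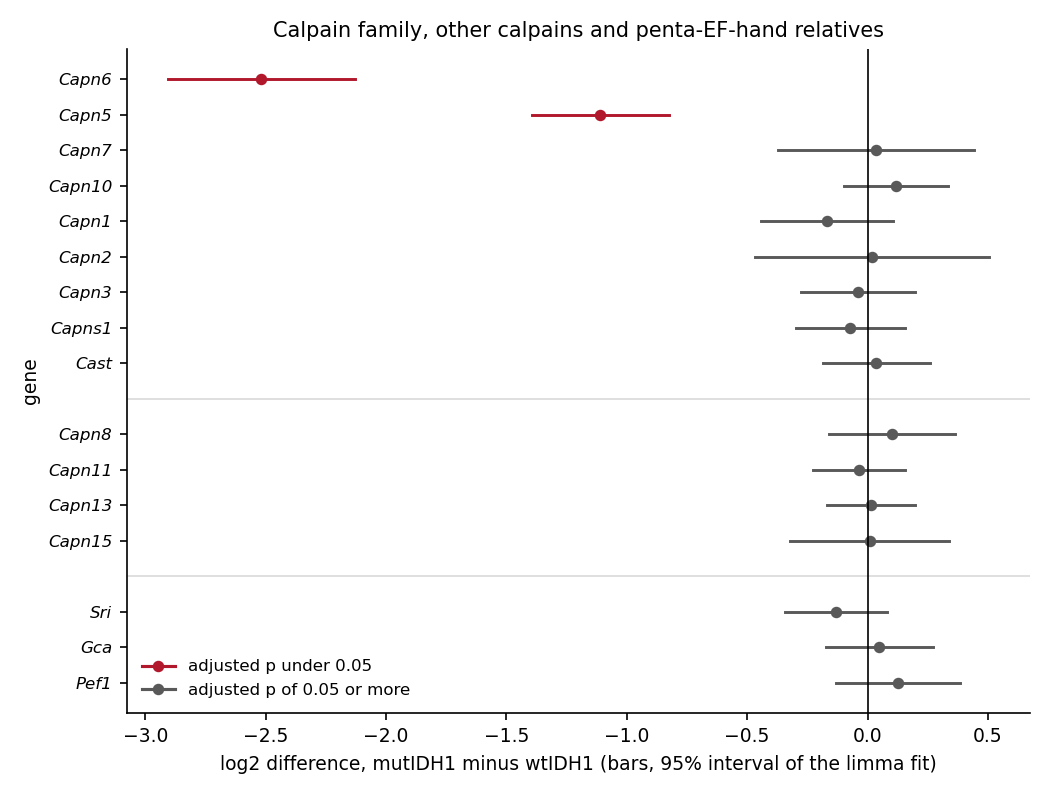
Log2 difference, mutIDH1 minus wtIDH1 (x axis), with the 95% interval of the limma fit, for the 9 genes (top block), other calpains (middle) and penta-EF-hand relatives (bottom). Red marks an adjusted p under 0.05. Only Capn6 (−2.52) and Capn5 (−1.11) are red among the genes plotted, and every other interval spans 0. Signals of Capn3, Cast, Capn8, Capn11 and Capn13 are at or near background in both groups, and those of Capn1 are close to it.

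Proteins that calpains cut were looked at through a list of 30 substrate genes, of which 26 were tested. In mutIDH1, 1 fell and 0 rose beside 0.899% and 0.449% of all genes tested. At an unadjusted p under 0.05, 4 were lower and 1 higher, beside 7.25% and 7.11% of all genes, and the list's median difference was 0.06, against 0.014 over all genes. Flna, filamin A that crosslinks actin, was the one that fell. It was at 8.86, 8.85 and 9.15 in mutIDH1 and 9.84 and 9.76 in wtIDH1, a difference of −0.85 ± 0.12 (adjusted p = 0.0443). All mutIDH1 samples lay below both wtIDH1 samples. The call was lost in 8 of 13 alternatives, among them each sample left out, and averaging its probes gave −0.45, with an adjusted p of 0.0528.

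Other substrates did not pass the test, with values on both sides of 0. Pxn, paxillin of focal adhesions, stood at −0.32 ± 0.07 (limma adjusted p = 0.112), but ranged from −0.39 to −0.07 over 13 alternative settings. Itgb1, the integrin beta 1 chain, stood at −0.35 ± 0.11 (0.240) and Nfkbia, the inhibitor of NF-kB, at −0.40 ± 0.14 (0.280). Vim, the intermediate filament vimentin, stood at 0.76 ± 0.12 (adjusted p = 0.0642), with 12.99, 12.88 and 13.05 in mutIDH1 against 12.39 and 12.05 in wtIDH1. With trended and robust moderation the limma adjusted p of Vim was 0.0247, and with 1 sample left out its difference was 0.59 to 0.93. Cttn, cortactin of actin branches, stood at 0.24 ± 0.12 (0.486). Gfap, the astrocyte filament that is also on the astrocyte list, was at 1.22 ± 0.68 (0.524), where wtIDH1 sample 1 was at 10.38 and every other sample between 12.31 and 13.20. Without wtIDH1 sample 2, Gfap (2.35) and Cdk5r1 (1.24), which encodes an activator of the kinase CDK5, passed and Flna did not.

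Genes that set the calcium supply of calpains passed in 0 of 14 cases in limma (1.35% of all genes tested). At an unadjusted p under 0.05, 1 was lower and 2 were higher, beside 14.4% of all genes in either direction, and the median difference was −0.03. Orai1, the pore of store-operated calcium entry, was at 10.95, 11.02 and 11.26 in mutIDH1 and 10.69 and 10.36 in wtIDH1, a difference of 0.56 ± 0.14 (adjusted p = 0.161). Stim2, a calcium sensor of the stores that opens Orai channels, stood at 0.39 ± 0.12 (0.214) and its relative Stim1 at −0.19 ± 0.11 (0.548). Over 13 alternative settings Stim2 ranged from 0.12 to 0.54. Piezo1, a channel opened by membrane stretch, stood at −0.55 ± 0.13 (0.139). Atp2b1, a calcium pump of the plasma membrane, stood at 0.19 ± 0.12 (0.581), and Itpr3, a release channel of the stores, was at or under background on all arrays. Without wtIDH1 sample 2, 3 genes of the list passed: Piezo1 (−0.72), the pump gene Atp2b2 (1.19) and Ryr2, a release channel of the stores (0.64). Without wtIDH1 sample 1 only Ryr2 did, with the opposite sign (−0.99). With all samples Ryr2 stood at −0.18 ± 0.45 and Atp2b2 at 0.26 ± 0.52; Atp2b2, Ryr2 and the substrate gene Cdk5r1 were named after their values were seen.

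**Figure D5:**
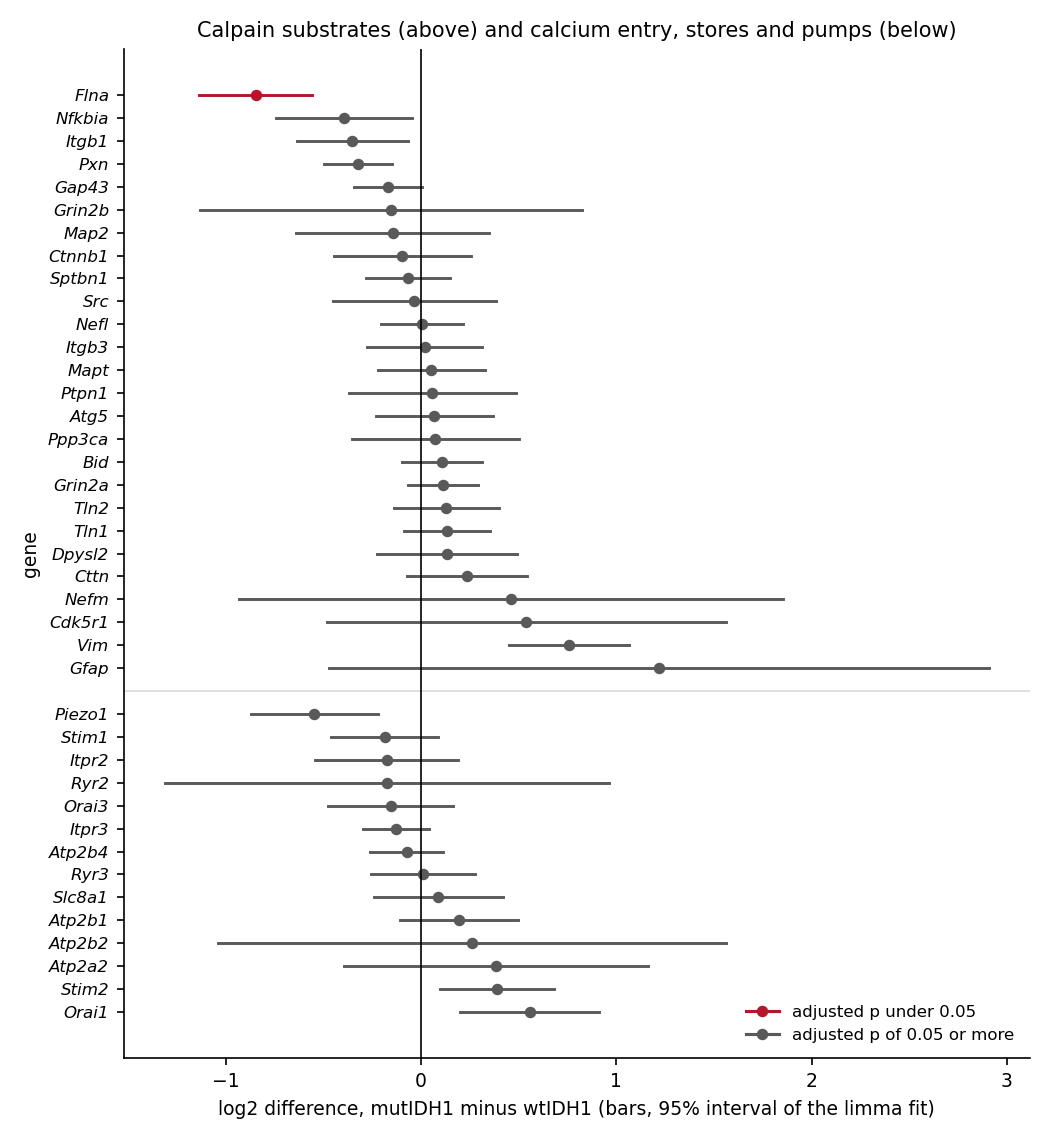
Log2 difference, mutIDH1 minus wtIDH1 (x axis), with the 95% interval of the limma fit, for 26 calpain substrates (upper block) and 14 genes of calcium entry, stores and pumps (lower block), each sorted by the difference. Flna, in red, is the 1 gene with an adjusted p under 0.05.

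Some markers of several cell types moved with Capn6 and Capn5, and the counts below stand beside 0.899% of all genes tested that fell and 14.4% with an unadjusted p under 0.05. The sum of a list follows its brightest genes. Of 13 mural cell and fibroblast markers 4 fell, and their summed linear signal was 6358 to 6560 in mutIDH1, against 11995 to 13309 in wtIDH1, with Myh11 at or under background. In this list 10 differences were below 0 and 3 above, among them Rgs5 (0.09) and Cspg4 (0.20). Dcn, among the brightest in wtIDH1, did not pass (limma adjusted p = 0.0815). Of 10 endothelial markers 3 fell (8172 to 10218 in mutIDH1, 14982 to 15217 in wtIDH1). Here 9 differences were below 0, with Tek at −0.08 and Tie1 at −0.11, and Kdr was at 0.08. Cldn5 and Esam, the brightest, did not pass (limma adjusted p = 0.146 and 0.0869). Of 7 macrophage markers tested of 9, 4 fell (2278 to 3577 in mutIDH1, 7871 to 11636 in wtIDH1). All 7 had differences below 0, and Lyz2, the brightest, did not pass (limma adjusted p = 0.083). Of 7 neutrophil markers tested of 8, 2 fell (1181 to 1212 in mutIDH1, 1836 to 2247 in wtIDH1), with Cxcr2, Ngp and Mmp8 at or under background. These sums did not overlap between the groups, and neither did those of red blood cell markers (3 tested of 7, 6544 to 15616 in mutIDH1, 23782 to 29179 in wtIDH1) and microglia markers (6 tested of 7, 4096 to 4868 in mutIDH1, 5414 to 7305 in wtIDH1), of which 0 passed in limma (2 lower, and 1 lower and 1 higher, at an unadjusted p under 0.05). Of the 6 microglia markers 3 were lower and 3 higher in mutIDH1. Their mean log2 signal overlapped between the groups (8.98 to 9.06 in mutIDH1, 8.91 and 9.38 in wtIDH1). Fcrls, the brightest of them, was at 10.93, 11.43 and 10.97 in mutIDH1 and at 11.82 and 12.20 in wtIDH1. The part of the cell types above in the falls of Capn6 and Capn5 was not tested.

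Sums of the remaining cell type lists, below and for oligodendrocyte precursors above, overlapped between the groups, and 0 of their genes passed in limma. They were 11017 to 19734 in mutIDH1 and 3415 to 25120 in wtIDH1 for 8 neuron markers (0 at an unadjusted p under 0.05, Snap25 at or under background), and 20663 to 72007 in mutIDH1 and 26465 to 65981 in wtIDH1 for 7 oligodendrocyte markers of 8 (0 likewise, Ermn at or under background). For 8 astrocyte markers they were 33652 to 47389 in mutIDH1 and 17435 to 42920 in wtIDH1 (1 lower and 1 higher likewise). For 5 T cell markers of 7 they were 820 to 862 in mutIDH1 and 815 to 837 in wtIDH1 (0 likewise), with Cd3g, Cd2 and Cd4 at or under background. For 4 skeletal muscle markers of 6 they were 646 to 749 in mutIDH1 and 642 to 745 in wtIDH1 (0 likewise), with Myh1 and Tnnt3 at or under background. Of the 7 oligodendrocyte precursor markers 2 were lower and 2 higher at an unadjusted p under 0.05.

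The genes whose profile over the 5 samples was most like that of Capn6 were Acta2, Ms4a7, En1, Mgp and Aqp1, among genes with a range of at least 1. All 5 fell in mutIDH1, by −2.01 to −2.54, and likeness by this measure mainly picks falls of like size. Over 13 alternative settings their smallest falls were −1.46 (Acta2), −1.47 (Ms4a7), −1.69 (En1), −2.44 (Mgp) and −1.33 (Aqp1). The root mean square difference from the Capn6 profile, each centred on its own mean, was 0.18 for Acta2, smooth muscle actin of mural cells, and 0.23 for both Ms4a7, which macrophages carry on their membrane, and En1, a homeobox gene of the midbrain and hindbrain. It was 0.25 for Mgp, the matrix Gla protein, and 0.29 for Aqp1, a water channel. Acta2 was at 9.67, 9.78 and 9.52 in mutIDH1 and at 11.58 and 12.12 in wtIDH1, so that wtIDH1 sample 2 was the highest, as for Capn6. Ms4a7 and Aqp1 were also highest in that sample, at 10.92 and 10.05, whereas En1 (10.53) and Mgp (13.45) were highest in wtIDH1 sample 1.

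None of the 4 tested genes nearest Capn6 on the X chromosome passed the test. Pak3, a kinase of neuronal spines and the nearest tested gene on one side, was at 11.05, 11.07 and 11.11 in mutIDH1 and at 10.69 and 10.34 in wtIDH1, a difference of 0.56 ± 0.12 (limma adjusted p = 0.110, and 0.0382 without wtIDH1 sample 1). Dcx, doublecortin of migrating neuroblasts and nearest on the other side, stood at 0.12 ± 0.15. Chrdl1 and A730046J19Rik, the next genes out, were at or under background on all arrays. The neighbours of Capn5 on chromosome 7, chosen after its values were seen, did not pass either. Omp, the olfactory marker protein, and Myo7a, an unconventional myosin, stood at 0.13 ± 0.10 and −0.09 ± 0.07 near background, and Acer3, a ceramidase, at −0.31 ± 0.20, while Gdpd4 was at or under background.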

How the data were processed

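Whole-tumour RNA of 5 gliomas was hybridised as 1 biotin-labelled sample per array, and groups came from the sample titles. Each sample has its own tumour code, and litters and batches are not labelled. The values are the authors' deposited log2 signals of 45281 probes. Per the submitters' processing notes limma was used, with no version; its background and normalization steps are not named. The columns share 1 distribution (array medians differ by at most 0.00069), as after quantile normalization, and a lowest value of 6.91 shows that background was not subtracted to 0, which compresses differences of dim genes. A table of raw signals was not used, because its 10 columns of per-sample values match no single sample's labels.

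Of the probes, 34885 had 1 gene symbol in the platform annotation, 18 several and 10378 none; 34807 matched RefSeq by gene identifier. One probe shared by Lgals8 and Capn2 was not used. The dimmest 20% of probes (mean under 7.23) were left out, 29160 named probes remained, and the brightest probe stood for each of 16917 genes. The background level is the mode of all signals (7.24) plus 3 times the spread below it (0.0887). Group differences come from limma 3.58.1 (R 4.3.3), as lmFit then eBayes with 3 residual and 2.50 prior degrees of freedom, 2-sided and adjusted by Benjamini-Hochberg at 0.05. Tested on simulated data of 16917 genes, 76 of 100 planted log2 changes of 1 and 95 of 100 of 2 were recovered, with 4 false calls. Whether these rates hold for the 5 tumours was not tested. The members and lists were chosen with earlier results of these data known. Named genes are all members, other calpains and penta-EF-hand relatives, called substrates and calcium genes with up to 3 more per direction, the 5 genes most like Capn6 and its neighbours; Capn5 neighbours were added.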

Additional observations from a re-analysis of the deposited data

How the results depend on the processing

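Over 13 alternatives Capn6 ranged from −2.97 (normexp background correction, which steepens dim values) to −2.26 and Capn5 from −1.19 to −1.02, always lower in mutIDH1. The number of changed genes was 228, or 363 with trended and robust moderation, 59 with sex as a covariate and 0 to 479 with 1 sample left out. The number of the 9 genes called was 2, or 1 with sex and 0 to 2 with a sample left out. For substrates it was 1, or 0 with the mean of probes, 2 with trended moderation, 0 with sex and 0 to 2 with a sample left out, and for calcium genes it was 0, or 0 to 3. Fits without a wtIDH1 sample take the spread from the mutIDH1 samples alone. With the sample number as a replicate block, which leaves 1 residual degree of freedom, 0 genes, 0 of the 9 genes and 0 substrates were called (1562 genes at an unadjusted p under 0.05), and Capn6 stood at −2.52 and Capn5 at −1.02. The labels do not say that numbers pair samples, and deviations from the group means correlated at −0.26 for number 1 and 0.11 for number 2.

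Among the genes followed through every setting, signs turned only for those not called with all samples, but Ryr2 passed at −0.99 without wtIDH1 sample 1 and at 0.64 without wtIDH1 sample 2. Atp2b2 was −0.68 and 1.19, and Cdk5r1 −0.16 and 1.24, in the same 2 fits. With cyclic loess Capn2 was −0.0069 and Capn15 −0.016; with the mean of probes Capn3 was 0.0010, Gca −0.024 and Dcx −0.061; with sex Capn15 was −0.036; with the block Capn13 was −0.0049, Capn15 −0.037 and Chrdl1 −0.022. With 1 sample left out, the ranges were −0.12 to 0.20 for Capn2, −0.14 to 0.061 for Capn3, −0.16 to 0.23 for Capn7, −0.17 to 0.024 for Capns1 and −0.023 to 0.074 for Cast. They were −0.11 to 0.039 for Capn11, −0.0085 to 0.048 for Capn13, −0.13 to 0.14 for Capn15, −0.043 to 0.14 for Gca, −0.022 to 0.070 for Chrdl1 and −0.12 to 0.36 for Dcx. The cause of these shifts was not tested. Signals near background limit Capn1, Capn3 and Cast.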
